A study of Bos taurus with 9 samples.

Results

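CDKN1C and MEG3 are imprinted genes that hold back growth, and on this array they were read by 8 probe sets, 3 annotated to CDKN1C and 5 annotated to MEG3, out of 24016 probe sets covering 9155 named genes. The members were all probe sets whose array annotation gives 1 of these 2 symbols alone, and probe sets of a gene that disagreed were kept apart. They are lettered here within each gene from the brightest, and the plots give the array's own names beside the letters. Both genes were chosen by their lower values on the arrays with interferon tau, so the 2 comparisons that use them are described here without a test, and only LPA against control is tested for the members.

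The arrays measured co-cultures of stromal and epithelial cells from the endometrium of Holstein/Polish Black and White cows, seeded at 3 stromal to 1 epithelial cell. Uteri came from 9 cows slaughtered on days 2 to 5 of the oestrous cycle, and once the cells had attached the medium was changed to one with albumin in place of serum for all groups. The LPA+IFNt group received lysophosphatidic acid (LPA, a signalling lipid, 1e-06 M) together with interferon tau (IFNt, the type I interferon by which the ruminant embryo signals pregnancy, 1000 antiviral units with no volume given), the LPA group received LPA at the same dose, and the control group received phosphate-buffered saline (PBS), each for 6 h. Every group had 3 arrays, each of RNA pooled from 3 cows, so the 9 pools drawn from 9 cows share animals and p-values measure the spread between pools only. Cells given interferon tau without LPA were not analysed here, so an effect of interferon tau cannot be told apart from one that needs LPA.

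An imprinted gene is transcribed mainly from the copy inherited from 1 parent, and CDKN1C and MEG3 are both expressed from the maternal copy in mammals. CDKN1C encodes a cyclin-dependent kinase inhibitor of the Cip/Kip family that binds cyclin-CDK complexes of the G1 phase and stops the cell cycle. In human endometrial stroma it is one of the genes induced as the cells leave the cycle and become decidual. MEG3 is a long non-coding RNA of the DLK1-DIO3 imprinted domain. In human cells it raises p53 activity and slows proliferation, and in mouse cells it has been found bound to the polycomb repressor complex PRC2.

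All values below are the deposited log2 expression values (RMA), so a difference of 1 is a doubling. The highest value of the Affymetrix probe sets for a bacterial trp transcript, 2.80, served as the upper edge of background. The 9 arrays correlated with each other with r of 0.991 to 0.999, and no pair held identical values. The interferon treatment was visible in each of the 7 measured antiviral and interferon-signalling genes of a check list, with log2 fold changes of 2.45 (STAT2) to 6.63 (ISG15) in LPA+IFNt against control for the 6 genes above background on all arrays. MX1, RSAD2, IFI6 and IRF9 stood at 5.35, 6.56, 6.42 and 2.61, and MX2, under background on every control and LPA array, rose by at least 6.91, taken against 2.80. Of the markers of the cultured cells, each of 10 epithelial and 11 stromal markers lay above 2.80 on every array. None of 6 endothelial and 4 of 8 leukocyte markers did so.

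CDKN1C was lower on all 3 arrays with LPA+IFNt than on any other array. Its probe set A read 6.12, 5.69 and 6.11 with LPA+IFNt, 7.54, 7.13 and 7.59 with LPA, and 7.59, 7.50 and 7.13 in control. The 3 LPA+IFNt values lay below every LPA and control value, while the LPA and control arrays covered nearly the same range. The group means were 5.98 ± 0.24 with LPA+IFNt, 7.42 ± 0.25 with LPA and 7.41 ± 0.24 in control (SD, n = 3 each).

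The log2 difference of CDKN1C was -1.43 (SE 0.18) in LPA+IFNt against control, and against LPA it was -1.45 (SE 0.18), which is 2.70-fold and 2.72-fold lower on the linear scale. Ranked among the 24016 probe sets from the lowest difference, it stood in place 11 and place 19. In LPA+IFNt against control 2.86% of all probe sets passed limma's adjusted p threshold of 0.05 as lower, and in LPA+IFNt against LPA 3.98% did. Of the 3 CDKN1C probe sets 1 passed in each, a count that describes the choice of the gene and supports nothing. With 1 array left out at a time the difference ran from -1.57 to -1.29 against control and from -1.59 to -1.30 against LPA. The 2 comparisons share the LPA+IFNt arrays.

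CDKN1C did not differ detectably between LPA and control. The difference of LPA against control was 0.01 (SE 0.18, adjusted p = 1 by limma), with a 95% interval of -0.41 to 0.43. The interval leaves out a change of the size seen with LPA+IFNt, and it does not exclude a smaller change in either direction. In the fit paired by replicate number this difference of 0.01 had an SE of 0.16 (adjusted p = 0.999 by limma). The sign of so small a value was not stable: it was -0.002 with arrays centred on their median, and -0.12, -0.05 and -0.07 without control replicate 3, LPA replicate 1 or LPA replicate 3.

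The other probe sets of CDKN1C carried no signal. Probe set C lay between 1.77 and 1.86 and probe set B between 2.24 and 2.36 over all 9 arrays, under the trp value throughout. They hold no level from which a change could be read, so the account of CDKN1C rests on 1 probe set.

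**Figure D1:**
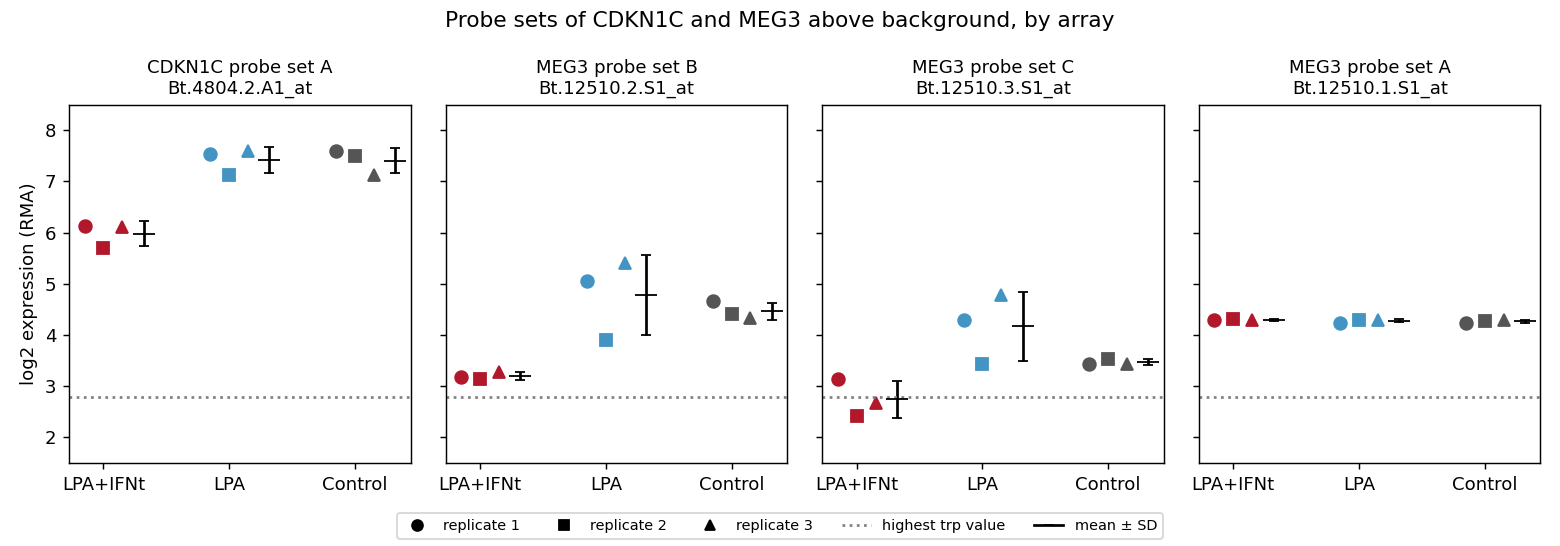
Log2 expression (vertical axis) of the 4 probe sets of CDKN1C and MEG3 with a mean above background, in LPA+IFNt, LPA and control. Each symbol is 1 array, its shape the replicate number, with the group mean ± SD beside it (n = 3) and the highest trp value as a dotted line. CDKN1C sits between 5.69 and 6.12 with LPA+IFNt and between 7.13 and 7.59 elsewhere, MEG3 is lowest with LPA+IFNt by 2 probe sets and flat near 4.3 by the other, and levels of different probe sets are not comparable.

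MEG3 was lower with LPA+IFNt by 2 of its 5 probe sets. MEG3 B read 3.17, 3.14 and 3.28 with LPA+IFNt, 5.06, 3.91 and 5.40 with LPA, and 4.66, 4.41 and 4.34 in control. The 3 LPA+IFNt values were close together and lay below every other array, while the LPA arrays spread around the control arrays, with LPA replicate 2 below and LPA replicates 1 and 3 above all of control. Group means were 3.20 ± 0.08 with LPA+IFNt, 4.79 ± 0.78 with LPA and 4.47 ± 0.17 in control (SD, n = 3 each).

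MEG3 C gave a like picture at the edge of detection. It read 3.14, 2.41 and 2.68 with LPA+IFNt, 4.29, 3.44 and 4.78 with LPA, and 3.44, 3.54 and 3.44 in control. With LPA+IFNt 1 of 3 arrays lay above the trp value and 2 lay under it, so the lower values there are within background, while all LPA and control arrays were above it. The value 3.44144 stood on 3 arrays, control replicates 1 and 3 and LPA replicate 2. Such exact repeats were common in the deposited table: 11.7% of probe sets had 1 value on 3 or more arrays, so the small SD of this control group (0.05) may not show its true spread.

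In LPA+IFNt against control the log2 difference of MEG3 was -1.27 (SE 0.34) by MEG3 B and -0.73 (SE 0.33) by MEG3 C. In LPA+IFNt against LPA it was -1.59 (SE 0.34) and -1.43 (SE 0.33). With the 2 LPA+IFNt arrays of MEG3 C that lay under background set to 2.80, its differences were -0.56 against control and -1.26 against LPA, which bound the drop from below. In the first of these comparisons 0 of the 5 MEG3 probe sets passed the threshold, beside 2.86% of all probe sets called lower, and in the second 2 of 5 did, beside 3.98%. These counts come from the values that chose the gene, and nothing is read from them. With LPA+IFNt all 3 arrays lay below all 3 control arrays for 12.8% of probe sets and below all 3 LPA arrays for 11.3%, and both moving MEG3 probe sets were among these.

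The size of the MEG3 differences against LPA moved with LPA replicate 2. Without that array they were -2.03 by MEG3 B and -1.79 by MEG3 C, and without any 1 of the other 8 arrays they ran from -1.64 to -1.29 and from -1.62 to -1.12. Neither was past the threshold without any 1 of those 8 arrays, so the count of 2 above does not stand on its own.

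In LPA against control both moving MEG3 probe sets had higher means with LPA, 0.32 (SE 0.34, 95% interval -0.47 to 1.11, adjusted p = 0.986) and 0.70 (SE 0.33, 95% interval -0.06 to 1.46, adjusted p = 0.647) by limma. Neither passed. Over the 8 members 0 were called in this comparison and 0 had an unadjusted p under 0.05, where 0.0708% and 8.3% of all probe sets did. Without LPA replicate 2 the differences were 0.76 and 1.06, and the first of these came nearest to the threshold (adjusted p = 0.0673 and 0.103). That array read below LPA replicates 1 and 3 by both MEG3 probe sets and by CDKN1C.

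The remaining MEG3 probe sets did not follow. MEG3 A lay above background on every array but between 4.23 and 4.31, a range of 0.08, with means of 4.30 ± 0.01 for LPA+IFNt, 4.28 ± 0.03 for LPA and 4.26 ± 0.03 for control (SD, n = 3 each). Its difference in LPA+IFNt against control was 0.03 (SE 0.03). The other pair, MEG3 E and MEG3 D, stayed between 1.56 and 1.64 on all arrays, under the trp value. MEG3 is spliced into many isoforms, and which of them each probe set reads was not tested.

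**Figure D2:**
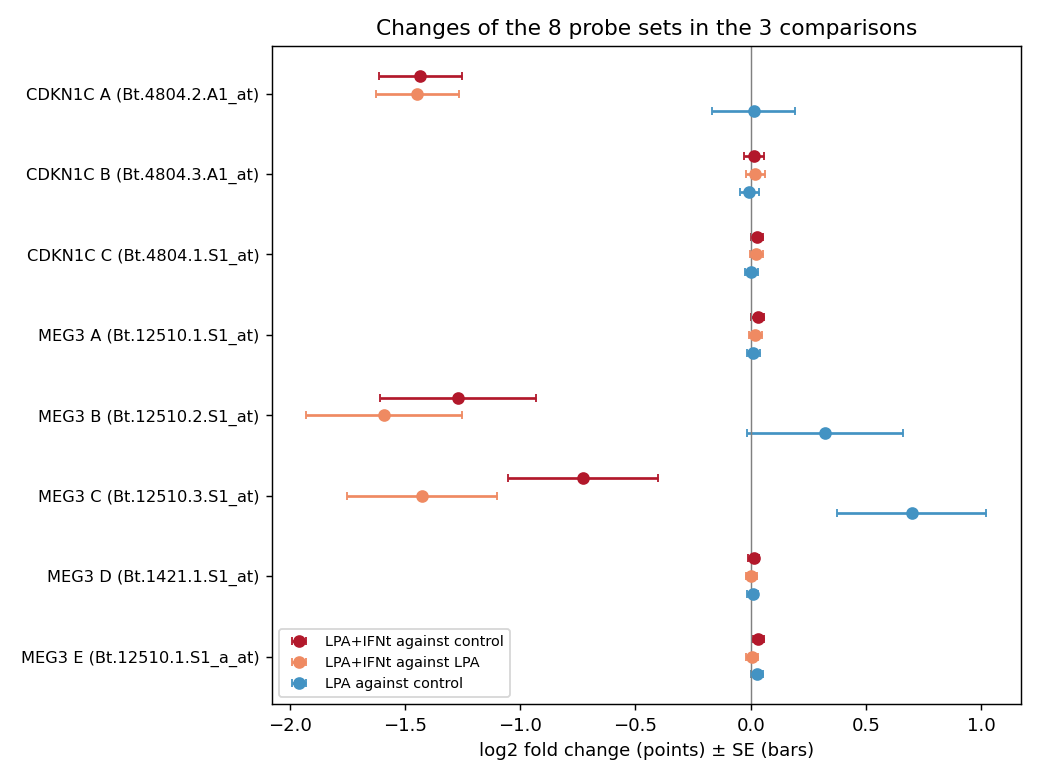
Log2 fold change (horizontal axis, points) with its SE (bars) for each of the 8 probe sets, in LPA+IFNt against control, LPA+IFNt against LPA and LPA against control. CDKN1C A, MEG3 B and MEG3 C lie left of 0 in both comparisons with LPA+IFNt (-0.73 to -1.59), and the other 5 lie at most 0.03 from 0 in every comparison.

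Across the 9 arrays CDKN1C and MEG3 followed each other. Pearson's r of CDKN1C with MEG3 was 0.92 by MEG3 B and 0.82 by MEG3 C, which includes the gap between LPA+IFNt and the other groups that led to the choice of both genes. With the group means taken out, r was 0.70 and 0.73, and between both MEG3 probe sets it was 0.84 (9 arrays, given as a description). Among the LPA arrays replicate 2 was the lowest on all 3 probe sets. CDKN1C A read exactly 7.13324 on that array and on control replicate 3, and 35.8% of probe sets had 1 value on 2 or more arrays. Values on 1 array also share the RNA pool and the hybridisation. The flat MEG3 A ran the other way within groups (-0.68 with CDKN1C) over its range of 0.08.

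**Figure D3:**
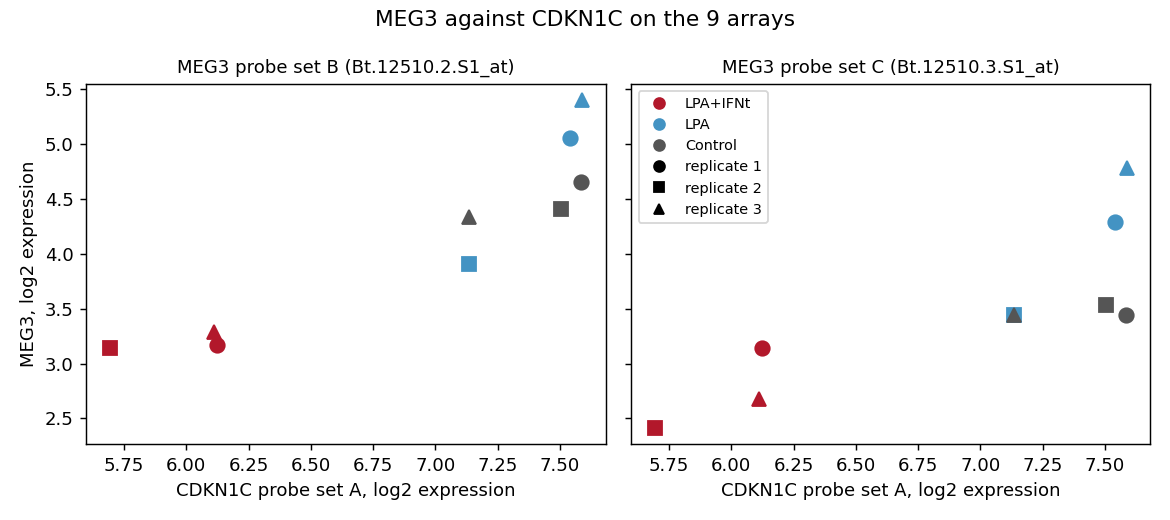
MEG3 (vertical axis, log2 expression, 1 panel for each moving probe set) against CDKN1C (horizontal axis, log2 expression) on the 9 arrays, coloured by group with the replicate number as the symbol's shape. The LPA+IFNt arrays form a separate lower left group, and among the LPA arrays replicate 2 is lowest for both genes (7.13 for CDKN1C, 3.91 and 3.44 for MEG3).

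The lists of related genes below were chosen with earlier results of these data known, and each gene is given by its brightest probe set. Of the 7 other CDK inhibitor genes listed, 3 were measured and 1 moved: CDKN2C, an INK4 inhibitor of CDK4 and CDK6, read 3.67 ± 0.0077 with LPA+IFNt and 4.18 ± 0.22 in control (SD, n = 3 each), a difference of -0.51 (SE 0.10, adjusted p = 0.027 by limma). In LPA+IFNt against control 5.34% of all probe sets passed in either direction. The call of CDKN2C was lost without LPA replicate 1 and without each of the LPA+IFNt arrays (highest adjusted p = 0.0876), and also with the 2 groups alone, without variance moderation and with arrays centred on spike-ins. Against LPA it stood at -0.41 and was called only in the fit paired by replicate number (adjusted p = 0.0408). CDKN1A, the p53-induced member of the Cip/Kip family, was not called, with differences of -0.10 in LPA+IFNt against control and -0.01 in LPA against control (adjusted p = 0.604 and 1). CDKN2B lay under the trp value on all arrays.

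No measured neighbour of CDKN1C was called lower with LPA+IFNt in the fit without pairing. Within 8 annotated genes on either side in the RefSeq order of the ARS-UCD2.0 assembly, 7 of 16 were measured and 4 lay above background on every array. PHLDA2, an imprinted gene that restrains placental growth, differed by -0.09 between LPA+IFNt and control (adjusted p = 0.757), and the cysteinyl-tRNA synthetase gene CARS1 stood at -0.08 (adjusted p = 0.593). TSSC4 had the largest drop of the 4, -0.28 (SE 0.16, adjusted p = 0.441) against control and -0.48 (SE 0.16, adjusted p = 0.155) against LPA, and the difference against LPA was called in the paired fit (adjusted p = 0.0231). CD81, which encodes a tetraspanin of the cell surface, rose by 0.34 (SE 0.03, adjusted p = 0.000662), and by 0.26 against LPA (adjusted p = 0.00273), with both calls kept in every fit with 1 array left out. Its call against LPA was lost with arrays centred on spike-ins (adjusted p = 0.106). TSPAN32, another tetraspanin gene, averaged 3.81 ± 0.65 with LPA+IFNt and 2.36 ± 0.12 in control (SD, n = 3 each), where its mean was under background. It rose by at least 1.02 on the log2 scale with the control arrays, all under background, set to 2.80 (adjusted p of the fit = 0.0243), and lost its call without any 1 control array or LPA+IFNt replicate 3 (highest adjusted p = 0.0927). SLC22A18 and KCNQ1, on either side of CDKN1C, were under the trp value on average (1.68 and 2.62).

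The list of the CDKN1C domain as a whole, 9 genes measured of 14, had 2 members higher, 0 lower and 7 not called in LPA+IFNt against control, with a median difference of -0.01 beside 0.02 for all probe sets, of which 5.34% were called in either direction. Against LPA the counts were the same, beside 6.54% of all probe sets, with a median of 0.03 beside 0.02. There TSPAN32 was called at an adjusted p of 0.0286 and lost its call without 6 of the 9 arrays (highest adjusted p = 0.0915). In LPA against control 0 were called by limma (median 0.01), with 3 at an unadjusted p under 0.05, where 8.3% of all probe sets had one.

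Around MEG3 little else could be read. DLK1, the paternally expressed partner of MEG3, lay at a mean of 2.55 and MEG8, another maternally expressed non-coding RNA of the domain, at 2.33. Differences in LPA+IFNt against control were 0.06 and 0.002 (adjusted p = 0.616 and 0.978), and 0 of the 2 measured genes of the 6 listed were called in any comparison by limma, with 0 at an unadjusted p under 0.05. Of 16 neighbours 4 were measured and 2 lay above background on all arrays. WARS1, the tryptophanyl-tRNA synthetase gene known as interferon-induced and named here after its values were seen, was higher with LPA+IFNt by 1.27 (SE 0.12, adjusted p = 0.000783) against control, and WDR25 stood at 0.04 (adjusted p = 0.425).

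Among 19 measured genes that are imprinted in cattle, mouse or human outside these domains, 2 fell and 0 rose in LPA+IFNt against control, with 17 not called, beside 2.86% of all probe sets called lower. The median was -0.06 beside 0.02 for all probe sets. IGF2R, the receptor that clears IGF2 from the cell surface, read 8.97 ± 0.13 with LPA+IFNt and 9.59 ± 0.15 in control (SD, n = 3 each), a difference of -0.62 (SE 0.11, adjusted p = 0.0155). NAP1L5, a nucleosome assembly protein gene, fell by 0.69 on the log2 scale (SE 0.13, adjusted p = 0.0239). Both calls were lost without control replicate 1 or 2 and without LPA+IFNt replicate 3, IGF2R also without LPA+IFNt replicate 2 and NAP1L5 without LPA+IFNt replicate 1 (highest adjusted p = 0.0662 and 0.0923). The dimmer probe set of IGF2R stood at -0.15 (adjusted p = 0.636), and with both averaged IGF2R was not called (-0.39, adjusted p = 0.0762). NAP1L5 with both averaged kept its call (-0.34, adjusted p = 0.0244).

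Against LPA, 3 genes of that list fell and 0 rose, with a median of -0.10 and 3.98% of all probe sets called lower. IGF2R fell by 0.61 on the log2 scale (SE 0.11, adjusted p = 0.0147), SNURF, of the SNRPN locus, fell by 0.42 (SE 0.05, adjusted p = 0.00281) and the necdin gene NDN fell by 0.30 (SE 0.07, adjusted p = 0.0456). The SNURF call was kept in every fit with 1 array left out and lost with arrays centred on spike-ins (adjusted p = 0.0518). NAP1L5 (-0.45) was called against LPA only in the paired fit (adjusted p = 0.00701). IGF2R lost its call without LPA replicate 1 or LPA+IFNt replicate 2 or 3 (highest adjusted p = 0.0646), and NDN kept its call only without control replicate 2 or LPA replicate 2 and lost it when paired by replicate number (adjusted p = 0.0691). SNURF stood at 0.37 in LPA against control (adjusted p = 0.0692) and at -0.06 in LPA+IFNt against control (adjusted p = 0.578). The paternally expressed genes PLAGL1 (-0.04), MEST (-0.25), PEG3 (-0.07) and SGCE (-0.27) were not called in LPA+IFNt against control, nor was GNAS (-0.05), and these 5 genes were named after their values were seen.

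**Figure D4:**
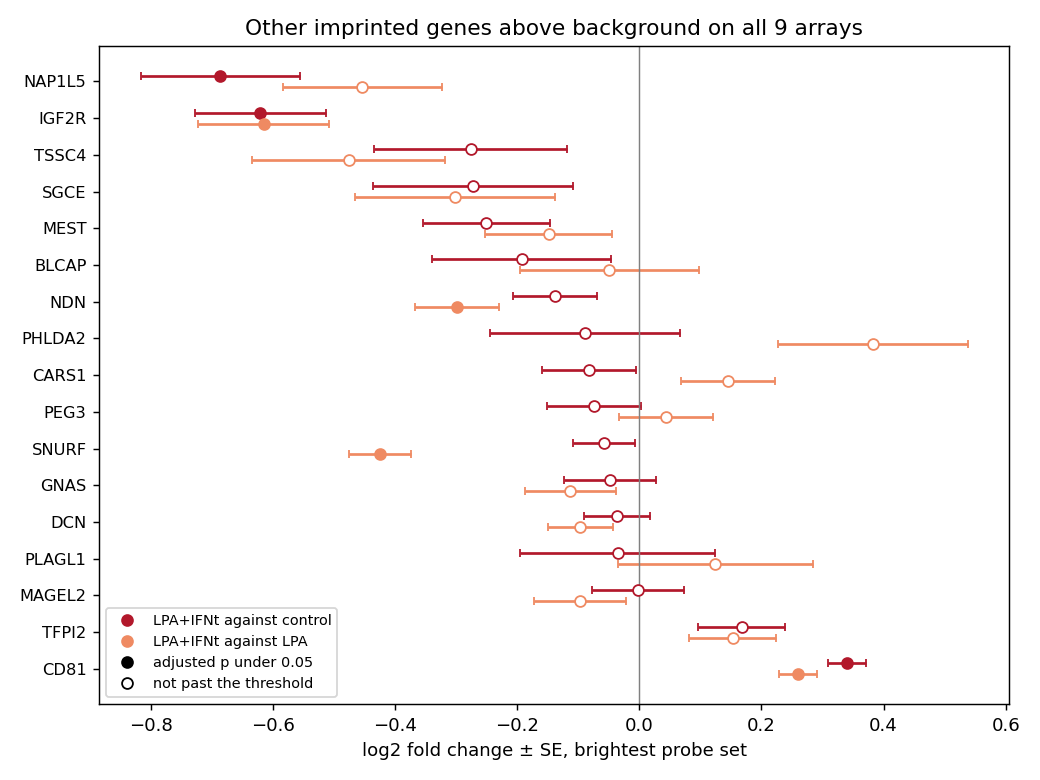
Log2 fold change ± SE (horizontal axis) of the other imprinted genes, and genes of the domain of CDKN1C, that lay above background on all 9 arrays, by their brightest probe set, with LPA+IFNt set against control (dark) and against LPA (light). No listed gene of the MEG3 domain lay above background on all arrays, so none is shown. Filled points passed an adjusted p of 0.05. NAP1L5 (-0.69) and IGF2R (-0.62) are the lowest called genes against control, and CD81 (0.34) is the called gene on the higher side.

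No transcript of the measured cyclins, CDKs and related cell cycle genes was called without pairing, and the list's median differed between comparisons. CDKN1C acts on the proteins, whose activity was not measured. Of 15 measured genes from a list of cyclin, CDK, retinoblastoma and E2F genes, CDC25A and MYC, 0 were called in any comparison by limma. Those at an unadjusted p under 0.05 were 1 in LPA+IFNt against control, 2 against LPA and 3 in LPA against control. Of all probe sets 16.7%, 17.5% and 8.3% lay under that value in these comparisons. Their median was -0.05 in LPA+IFNt against control, -0.14 in LPA against control and 0.14 in LPA+IFNt against LPA. For all probe sets it was 0.02, 0.002 and 0.02. In the paired fit CCND1 (0.64, adjusted p = 0.0481) was called higher and RB1 (-0.24, adjusted p = 0.0427) lower against LPA. In LPA+IFNt against control RB1 stood at -0.27 (adjusted p = 0.076, or 0.0313 in the paired fit) and CDK2 at 0.14 (adjusted p = 0.349). Of 16 measured proliferation genes 1 fell in LPA+IFNt against control, beside 2.86% of all probe sets, RRM1, a subunit gene of ribonucleotide reductase (-0.27, SE 0.06, adjusted p = 0.034). It kept its call only without LPA replicate 1 or 3 (highest adjusted p = 0.122). The median of the proliferation list was -0.15 in LPA+IFNt against control, -0.22 in LPA against control and 0.09 in LPA+IFNt against LPA. In LPA against control 0 were called by limma, with 5 of 16 at an unadjusted p under 0.05, where 8.3% of all probe sets had one. In LPA+IFNt against control 3 of 16 had one, beside 16.7%. In LPA+IFNt against LPA 0 were called by limma (2 at an unadjusted p under 0.05, beside 17.5%). There 2 were called in the paired fit, RRM1 (-0.21) lower and MCM3 (0.22) higher.

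Of 11 measured genes of p53 and its targets, 1 fell in LPA+IFNt against control, beside 2.86% of all probe sets, and in the paired fit FAS was also higher (0.34, adjusted p = 0.0461). TP53INP1, a p53-induced gene of the stress response, read 9.24 ± 0.04 with LPA+IFNt and 9.96 ± 0.11 in control (SD, n = 3 each). The difference was -0.72 (SE 0.05, adjusted p = 0.000238), and -0.65 against LPA (adjusted p = 0.000402), and both calls were kept in every fit with 1 array left out. The other probe set of TP53INP1 lay under background. FAS, which encodes a death receptor, rose by 0.54 against LPA (SE 0.10, adjusted p = 0.0185), a call lost without LPA replicate 1 or any 1 LPA+IFNt array (highest adjusted p = 0.0636). MDM2 (0.06) was not called, and was named after its values were seen. The list's median was -0.07 in LPA+IFNt against control, where its genes ran from -0.72 to 0.45, and 0.02 against LPA. Those at an unadjusted p under 0.05 were 6 of 11 in LPA+IFNt against control, 2 against LPA and 1 in LPA against control. Of all probe sets 16.7%, 17.5% and 8.3% had one.

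Of 8 measured genes of DNA methylation, imprint protection and polycomb repression 0 passed in any comparison by limma, with 4 at an unadjusted p under 0.05 in LPA+IFNt against control, 3 against LPA and 2 in LPA against control, where 16.7%, 17.5% and 8.3% of all probe sets had one. UHRF1, which brings DNMT1 to replicating DNA, stood at -0.26 in LPA+IFNt against control (adjusted p = 0.0562, or 0.00886 in the paired fit, which takes the replicate number as block) and the maintenance methyltransferase gene DNMT1 at 0.28 (adjusted p = 0.0887). In the paired fit 3 genes of this list were lower, UHRF1, TRIM28 (-0.54, adjusted p = 0.0392) and EED (-0.31, adjusted p = 0.0175). EED, the PRC2 subunit, cannot be read well, since the annotation gives 23 probe sets to it. A dimmer EED probe set, found below by its likeness to CDKN1C, stood at -1.57 in LPA+IFNt against control and -1.39 against LPA.

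Of 11 measured genes of decidualisation and of the pathways that control CDKN1C, 1 rose and 1 fell in LPA+IFNt against control, beside 5.34% of all probe sets called, with a median of 0.05. IGFBP1, a secreted IGF-binding protein and decidual marker in human endometrium, stood at 6.47 ± 0.23 with LPA+IFNt and 7.13 ± 0.14 in control (SD, n = 3 each), a difference of -0.66 (SE 0.12, adjusted p = 0.0168). Against LPA it was -0.85 (SE 0.12, adjusted p = 0.00509). SMAD3, a transducer of TGF-beta signals, rose by 0.32 (SE 0.06, adjusted p = 0.0147), and by 0.35 against LPA (adjusted p = 0.00953), and CEBPB fell by 0.69 against LPA (SE 0.15, adjusted p = 0.0381). The calls against LPA of IGFBP1 and SMAD3 were kept in every fit with 1 array left out. Against control IGFBP1 lost its call without control replicate 1 or 3 or LPA+IFNt replicate 1 (highest adjusted p = 0.0624) and SMAD3 without control replicate 2 or 3 or LPA+IFNt replicate 1 or 3 (0.0617). CEBPB kept its call only without control replicate 1 or LPA replicate 2 (highest adjusted p = 0.126), and its dimmer probe set stood at 0.10. The progesterone receptor gene PGR, through which decidualisation is driven, lay at a mean of 2.11, under background.

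Markers of stromal and of contractile cells were also lower in sum with LPA+IFNt. The stromal sums also lay higher with LPA than in control. In that comparison CDKN1C A differed by 0.01, MEG3 B by 0.32 and MEG3 C by 0.70, and none was called by limma. The summed log2 level of 11 stromal markers was 123.9 to 124.5 with LPA+IFNt, 126.5 to 128.7 with LPA and 125.03 to 126.4 in control. The 3 groups did not overlap, but LPA and control nearly met (lowest LPA array 126.54, highest control array 126.42). Among single probe sets 12.8% had all LPA+IFNt arrays below all control arrays, and 11.3% below all LPA arrays. Summed over 7 smooth muscle and pericyte markers, of which 5 were above background on all arrays, it was 40.8 to 41.9 with LPA+IFNt, 43.6 to 45.1 with LPA and 42.01 to 43.7 in control. LPA replicate 2 was the lowest LPA array by both sums, as it also was by the sums of epithelial and of leukocyte markers. The sum of 10 epithelial markers, 108.3 to 109.5 with LPA+IFNt, 108.03 to 108.9 with LPA and 107.7 to 109.0 in control, overlapped in all groups. The part of these shifts in the values of CDKN1C and MEG3 was not tested, and in bulk RNA fewer cells of a type and less RNA per cell cannot be told apart.

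By gene, 2 of 11 stromal markers fell in LPA+IFNt against control, COL3A1 (-0.51, SE 0.05, adjusted p = 0.00153) and COL1A1 (-0.39, SE 0.08, adjusted p = 0.034), beside 2.86% of all probe sets. Against LPA 4 fell beside 3.98%, COL1A1, COL3A1, COL1A2 and THY1, of which THY1 fell most (-0.69, SE 0.08, adjusted p = 0.00208). COL1A2 (-0.25, adjusted p = 0.0326) lost its call in the paired fit (adjusted p = 0.0609) and without 5 of the 9 arrays (highest adjusted p = 0.106). The COL1A1 call against control was lost without any 1 array other than LPA replicates 1 and 2 (highest adjusted p = 0.123). ACTA2, smooth muscle actin, fell by 1.05 against LPA (SE 0.16, adjusted p = 0.00853), the 1 call among the contractile markers without pairing, and in the paired fit CNN1 (-0.37) and DES (-1.57) were also lower.

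Markers of other cells were called as well. Of 10 epithelial markers CDH1 (0.21, SE 0.03, adjusted p = 0.0112) was higher in LPA+IFNt against control and SPINT2 (-0.45, SE 0.06, adjusted p = 0.00457) lower against LPA, and the CDH1 call was lost without control replicate 2 (adjusted p = 0.0511). In the paired fit MUC1 was also higher in both comparisons (0.40 and 0.48) and KRT18 against LPA (0.20). Of 8 leukocyte markers CD53, above background on 1 of 3 control and 2 of 3 LPA arrays, was higher in both (1.26 and 1.15, adjusted p = 0.0252 and 0.0336). Its calls were lost without 6 and without 7 of the 9 arrays (highest adjusted p = 0.0974 and 0.107), and in the paired fit CD14 was lower in both (-0.74 and -0.80). The summed log2 level of the leukocyte markers was 30.060 to 31.8 with LPA+IFNt, 29.9 to 32.5 with LPA and 29.3 to 30.062 in control, and the groups overlapped.

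Within groups, r of CDKN1C with the mean of a marker list was 0.22 for stromal, 0.75 for epithelial, 0.90 for smooth muscle and pericyte and 0.51 for leukocyte markers. For MEG3 B it was 0.63, 0.55, 0.75 and 0.80, and for MEG3 C 0.70, 0.57, 0.69 and 0.60 (9 arrays, a description).

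**Figure D5:**
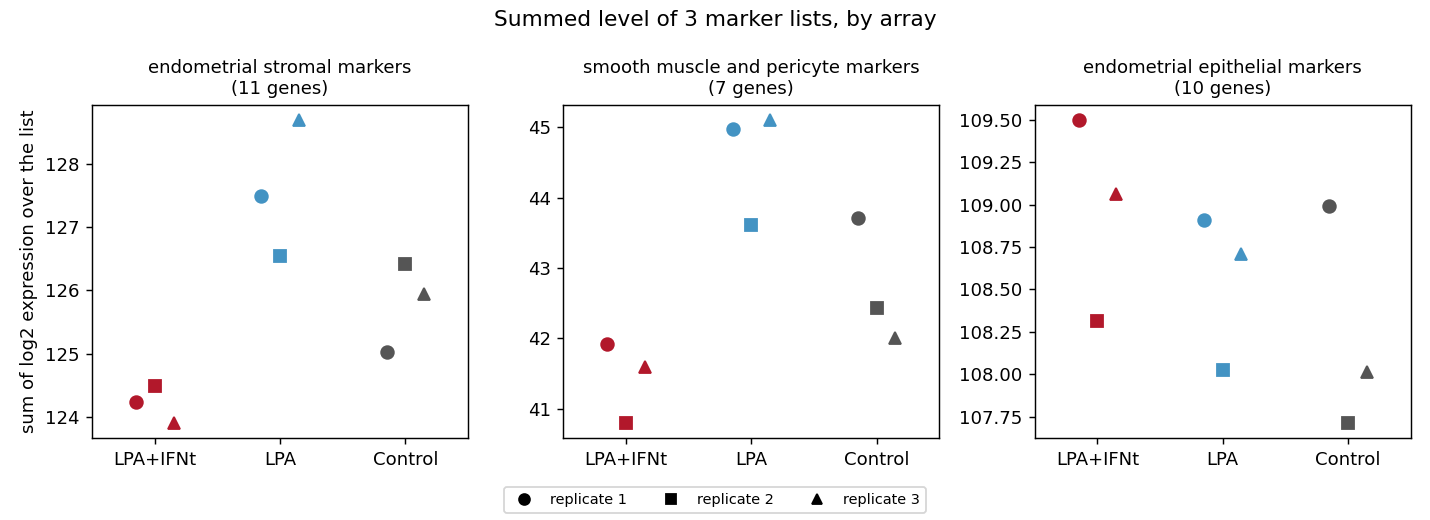
Sum of log2 expression over 3 marker lists (vertical axes, not starting at 0), in LPA+IFNt, LPA and control, with 1 symbol for each array and its shape the replicate number. For stromal markers the LPA+IFNt arrays (123.9 to 124.5) lie below the LPA arrays (126.5 to 128.7) and the control arrays (125.03 to 126.4), and for epithelial markers the 3 groups overlap.

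The genes whose profile over the 9 arrays was most like CDKN1C were SH3BGR, the procollagen processing enhancer PCOLCE2, IGF2R, the AMPK-related kinase gene NUAK1, 1 of the EED probe sets and the site-1 protease gene MBTPS1, with r of 0.981 to 0.990. NAMPT, the DNA polymerase eta gene POLH, LOC512905 and the interferon-induced GTPase gene GBP4 were the most opposite (r of -0.988 to -0.974). These were taken from 2840 other probe sets with a single symbol, a mean above background and an SD of at least 0.2, and 5.95% of them had r over 0.9 with CDKN1C.

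For MEG3 B the most alike genes were RRAD, a small GTPase that inhibits calcium channels, the basement membrane collagen COL15A1, IGIP, ANKRD29, GPR137B and TM7SF2, with r of 0.974 to 0.980. By MEG3 C they were POLD4, TMEM204, ACTA2, OGA, the matrix protein gene FBLN1 and BPHL, with r of 0.964 to 0.979. No gene was shared by these 2 sets of 6, nor with the set of CDKN1C. Of 2839 candidates 5.35% had r over 0.9 with MEG3 B and 3.10% with MEG3 C, so each set of 6 holds only part of the close profiles. The profiles over 9 arrays include the gap of the LPA+IFNt arrays that led to the choice of both genes. CALCRL, the receptor gene for adrenomedullin and calcitonin gene-related peptide, was among the 4 most opposite genes by both MEG3 probe sets (r of -0.961 and -0.950). MEG3 A, over its range of 0.08, was most like AKIRIN1 (r of 0.932).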

How the data were processed

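Expression was measured on Affymetrix bovine arrays. The deposited values are log2 expression, normalized by the authors: the submitters' processing notes name Partek and RMA, with versions not given in the sources used here. They were used as deposited. Of 24128 probe sets 112 Affymetrix controls were left out. Of the 24016 tested, 13292 carried 1 gene symbol in the platform annotation, 86 several and 10638 none, and 13263 symbols were matched by gene ID in RefSeq (ARS-UCD2.0). The annotation can be old, and no genome build is named for the probe sets, so no coordinates or sequences are given.

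The 3 groups were fitted together by lmFit and eBayes of limma 3.58.1 (R 4.3.3), with Benjamini-Hochberg adjustment over all 24016 probe sets and a threshold of 0.05. The procedure was tested on simulated data. The genes and the lists were chosen with earlier results of these data known. Named genes were, per list and by the brightest probe set, at most 6 of those called, taken by size of change, the 2 with the smallest p in LPA+IFNt against control where none passed, called cell markers, and calls that the paired fit added. The last 2 kinds, the neighbours and other genes so marked were named after their values were seen. Also named were the 6 most alike and 4 most opposite profiles of each probe set above background. Alternatives were another set of arrays, the replicate number as a block, no moderation, a trended robust prior, a filter on dim probe sets, centring on medians or spike-ins, probe sets averaged by gene, and each array left out.

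Deviations from the group means correlated at 0.19 to 0.49 in all 9 same-numbered pairs of arrays, and at -0.47 to 0.14 in the 18 others. Deviations cancel out within a group, so positive values in the first set pull the others down. The labels give replicate numbers only, and what same-numbered samples shared is not stated. The main fit leaves the replicate number out, and the fit with the replicate number as a block, called paired here, takes it in. The number of arrays limits the precision.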

Additional observations from a re-analysis of the deposited data

How the results depend on the processing

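The members' differences with LPA+IFNt use the values that chose the genes, so the settings show only how the sizes moved, and support nothing. For CDKN1C A they ran from -1.57 to -0.46 against control and from -1.59 to -0.47 against LPA, where the smallest sizes average its 3 probe sets. CDKN1C in LPA against control, at 0.01, was -0.00215 with median centring and -0.124 to 0.157 with 1 array left out. The 2 groups alone, no moderation and the dim filter cannot move a difference of group means, only its SE and adjusted p. MEG3 B against control (-1.27) did not pass in the main fit. It passed with the 2 groups alone, the dim filter, median centring (-1.29) and spike-ins (-1.23), and ran from -1.33 to -1.18 with 1 array left out. Against LPA MEG3 B (-1.59) and MEG3 C (-1.43) passed in the main fit, but not with the 2 groups alone or without moderation. Their ranges with 1 array left out were -2.03 to -1.29 and -1.79 to -1.12. Nothing is read from these calls. MEG8 against control turned to -0.0211 with median centring and ran from -0.0182 to 0.0214 with 1 array left out. The replicate number as a block moved the count of probe sets called in LPA+IFNt against control to 2085 (1282 without it), in LPA against control to 11 (17 without it), and in LPA+IFNt against LPA to 2320 (1571 without it). For LPA against control other counts were 1 with the 2 groups alone, 0 without moderation (1993 at an unadjusted p under 0.05 with moderation), 50 with a trended robust prior, 37 with the dim filter, 49 with spike-ins and 0 to 169 with 1 array left out. For LPA+IFNt against control they were 788 without moderation and 791 to 1352 with 1 array left out, and for LPA+IFNt against LPA 1004 with the 2 groups alone, 901 without moderation and 954 to 2204 with 1 array left out. Among listed genes, calls against control were lost with the 2 groups alone for CDKN2C, IGFBP1 and TSPAN32, without moderation for CD53, CDKN2C, COL1A1, IGF2R, IGFBP1, NAP1L5, RRM1 and TSPAN32, with spike-ins for CDH1, CDKN2C, COL1A1 and RRM1, and with probe sets averaged for CDH1 and IGF2R. Calls against LPA were lost with the 2 groups alone for CD53, CEBPB, COL1A2, FAS, NDN and TSPAN32, without moderation for these and IGF2R, with spike-ins for CD81, COL1A2, NDN and SNURF, with a trended prior for NDN and with the block for COL1A2 and NDN (adjusted p of 0.0513 to 0.294 over all these). No scaling moved the median of all probe sets by over 0.1. The cause of these differences was not tested.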

Other observations

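With the group means taken out, the arrays within groups still ordered some genes as they did the members. For CDKN1C these were ZFP36, which encodes a protein that destabilises AU-rich messenger RNAs, LRRFIP1, LPCAT3, MARF1, APOD and the fibroblast growth factor receptor gene FGFR1, with r of 0.940 to 0.989. PACRGL was the most opposite (r of -0.939). For MEG3 B they were ZNF814, NAPRT, GINM1, XIST (the non-coding RNA of X inactivation), RAB3IP and the complement gene C4A, with r of 0.968 to 0.995, and CXXC5 was the most opposite (r of -0.971). For MEG3 C the autophagy gene GABARAPL1 led (r of 0.971), and ACTA2 (0.947), POLD4 and BPHL were among the 6 both within groups and over all 9 arrays. These correlations rest on 9 arrays that share their RNA pools, and are descriptions. Of the candidate probe sets 0.845%, 3.06% and 0.916% had r over 0.9 within groups with CDKN1C, MEG3 B and MEG3 C.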
